A study of Mus musculus with 16 samples.

Results

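The germ-cell ADAM genes followed here are 9 genes whose proteins sit on the surface of mouse sperm or help to assemble it: Adam1a, Adam1b, Adam2, Adam3, Adam5, Adam18, Adam24, Adam25 and Adam32. The genes were chosen by name as germ-cell members of the ADAM family, and all 9 were found among the 35920 genes of the table. They were measured in 16 RNA sequencing libraries of mouse testis. The RNA of each testis sample was passed over the antibody J2, which recognises RNA in double-stranded form. RNA held by the antibody (J2) and RNA that was not held (flow-through) were sequenced apart. Wild-type mice and mice labelled Dcr-/- and Dicer KO, both at day 18 after birth (P18), and wild-type adults each gave both fractions, with 3 libraries per fraction at P18 and 2 per fraction in adults. The P18 mice are labelled C57BL/6 x 129S4/SvJae and the strain of the adults is labelled unknown, so age and strain cannot be told apart. The labels give the knock-out no driver, promoter or cell type. All groups share the tissue and the antibody step. Nothing in the labels says that replicates came from separate animals, so each p-value rests on a spread that may be technical.

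ADAM proteins are membrane proteins with a disintegrin domain and a metalloprotease domain, named for both. In the testis many of them are made by germ cells, in meiotic spermatocytes or in the haploid spermatids that follow, and are carried to the sperm surface. Adam2 encodes fertilin beta, which pairs with the Adam1a product in the endoplasmic reticulum and with the Adam1b product on sperm. Adam3 encodes cyritestin, which sperm need to pass from the uterus into the oviduct and to bind the zona pellucida, and which is lost from sperm when Adam2 or several chaperones are missing. Adam5, Adam18 and Adam32 encode related sperm surface proteins without a working protease site. Adam24 and Adam25 encode testases, family members that keep the protease site. Long double-stranded RNA is a substrate of Dicer, the nuclease that also releases microRNAs from their precursors.

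Values are the authors' normalized counts, called units below. Flow-through libraries summed to 6.054 to 34.86 M units (M, 1e+06) and J2 libraries to 0.446 to 0.824 M units, and the largest sum was that of knock-out flow-through replicate 1. The value that 1 read stands for was estimated at 2 to 8.31 units in flow-through and 0.116 to 0.516 units in J2. A count of 3 reads, used as the floor below which nothing can be said, is therefore worth 6.01 to 24.9 units in a flow-through library and 0.348 to 1.55 units in a J2 library, for counting error only. A 0 in flow-through is thus a weaker statement than a 0 in J2. Only 0 to 9 genes per flow-through library held a multiple of the estimated value of 1 read, against 20 to 3049 in J2. Read numbers, floors and bounds for flow-through are therefore approximate. Dicer1 itself was listed at 0 to 12.4 units in wild-type P18 flow-through and 0 to 8.33 in knock-out flow-through, and at 0 to 11.3 and 0 to 3.39 units in J2. These ranges overlap, and a gene-level value also counts exons outside a deletion, so Dicer1 checks no label here. Lengths of the transcripts counted are not given in the sources used here, so levels are compared between libraries and never between genes.

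The 9 genes lie in few places of the genome (GRCm38.p6). Adam18, Adam3, Adam5 and Adam32 stand side by side on chromosome 8 from 24602246 to 24948918, a stretch of 346.7 kb with gaps of 2.476, 0.715 and 11.77 kb between them. Inside this stretch Adam3 overlaps a lncRNA gene (Gm51566) and a pseudogene (Gm26208, listed at 0 in every library). Adam24 (40675077 to 40682199) and Adam25 (40752208 to 40756187) lie 70.01 kb apart farther along chromosome 8. Adam1b (121500096 to 121503435) and Adam1a (121518604 to 121521695) lie 15.17 kb apart on chromosome 5. Adam1b overlaps Tmem116 on the other strand, which reached 21.5 units and was above 0 in 11 libraries. The kit marked strand, but whether counting used it is not given in the sources used here, so Adam1b values are uncertain. Adam2 lies on chromosome 14 (66027322 to 66077851) and overlaps the pseudogene Gm10233. Adam1a with Adam1b, and Adam24 with Adam25 and its other relatives, are close copies among which reads can be split, and their values are uncertain for that reason too.

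RefSeq promoter sequences (GRCm38.p6) were at hand for 3 of the 9 genes, and the 250 bases before the start are shown because the members differed in whether they were seen at P18: Adam1b was, its neighbour Adam1a almost not, and Adam25 not at all. They lie at chr5:121521696-121521945 (minus strand), chr5:121503436-121503685 (minus strand) and chr8:40751958-40752207 (plus strand), and are written 5′ to 3′ along the gene. Capitals mark matches, on either strand, to AACNG (core of the site of MYB factors, which act in spermatocytes), TGACG (core of the CRE site of CREM, which acts in spermatids), GTTGC (an arm of the X-box of RFX factors) and TATAA (the box bound by TBP). These motifs were chosen with the sequences in view.
Adam1a: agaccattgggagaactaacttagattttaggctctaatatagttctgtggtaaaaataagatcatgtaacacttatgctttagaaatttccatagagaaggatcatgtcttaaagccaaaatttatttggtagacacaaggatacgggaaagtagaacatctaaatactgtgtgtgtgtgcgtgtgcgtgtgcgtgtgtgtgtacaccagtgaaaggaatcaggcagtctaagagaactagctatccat
Adam1b: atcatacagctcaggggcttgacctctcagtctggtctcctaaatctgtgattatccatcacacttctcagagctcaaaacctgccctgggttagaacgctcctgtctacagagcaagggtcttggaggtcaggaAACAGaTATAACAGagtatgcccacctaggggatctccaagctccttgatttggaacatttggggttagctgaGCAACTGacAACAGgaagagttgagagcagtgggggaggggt
Adam25: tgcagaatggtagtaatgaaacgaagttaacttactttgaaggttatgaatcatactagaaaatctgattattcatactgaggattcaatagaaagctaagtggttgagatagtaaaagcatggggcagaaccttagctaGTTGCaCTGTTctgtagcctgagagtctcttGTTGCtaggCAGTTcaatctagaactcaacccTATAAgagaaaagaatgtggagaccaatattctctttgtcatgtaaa

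In the Adam1a sequence none of these letters was found. Adam1b held AACNG on its own strand with first bases 115, 106, 40 and 33 bases before the start, TATAA at 109, and GTTGC on the opposite strand at 42. In Adam1b the TATAA match overlaps an AACNG match, and so does the GTTGC match. Adam25 held GTTGC at 110 and 79 bases before the start, AACNG on the opposite strand at 104 and 70, and TATAA at 47. TGACG was in none of the 3 windows. Among 32851 promoter windows of 250 bases, 74.2% held AACNG, 29.9% GTTGC, 22.8% TATAA and 17.8% TGACG, so each match is a common one. G and C made up 38% of the Adam1a window, 50% of Adam1b and 36.8% of Adam25, against a median of 52.4% over all windows. A match is a description of the letters, not of binding.

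The members fell into 3 patterns of detection. Adam2, Adam3 and Adam5 were above 0 in all 16 libraries. Adam1b and Adam32 were above 0 in 13 libraries each, of both ages, and Adam18 in 4. Adam1a, Adam24 and Adam25 were seen almost only in adults: Adam24 and Adam25 were listed at 0 in all 12 P18 libraries, and Adam1a was above 0 in 2 of them, at 2.34 and 0.19 units. In adults Adam24 and Adam1a were above 0 in 4 of 4 libraries and Adam25 in 3 of 4. Of the summed units of the 9 genes, Adam2 and Adam5 together made up 42.1% to 99.2% per library. This is a share of counted units, in which transcript length may play a part, and does not rank the genes by abundance.

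**Figure D1:**
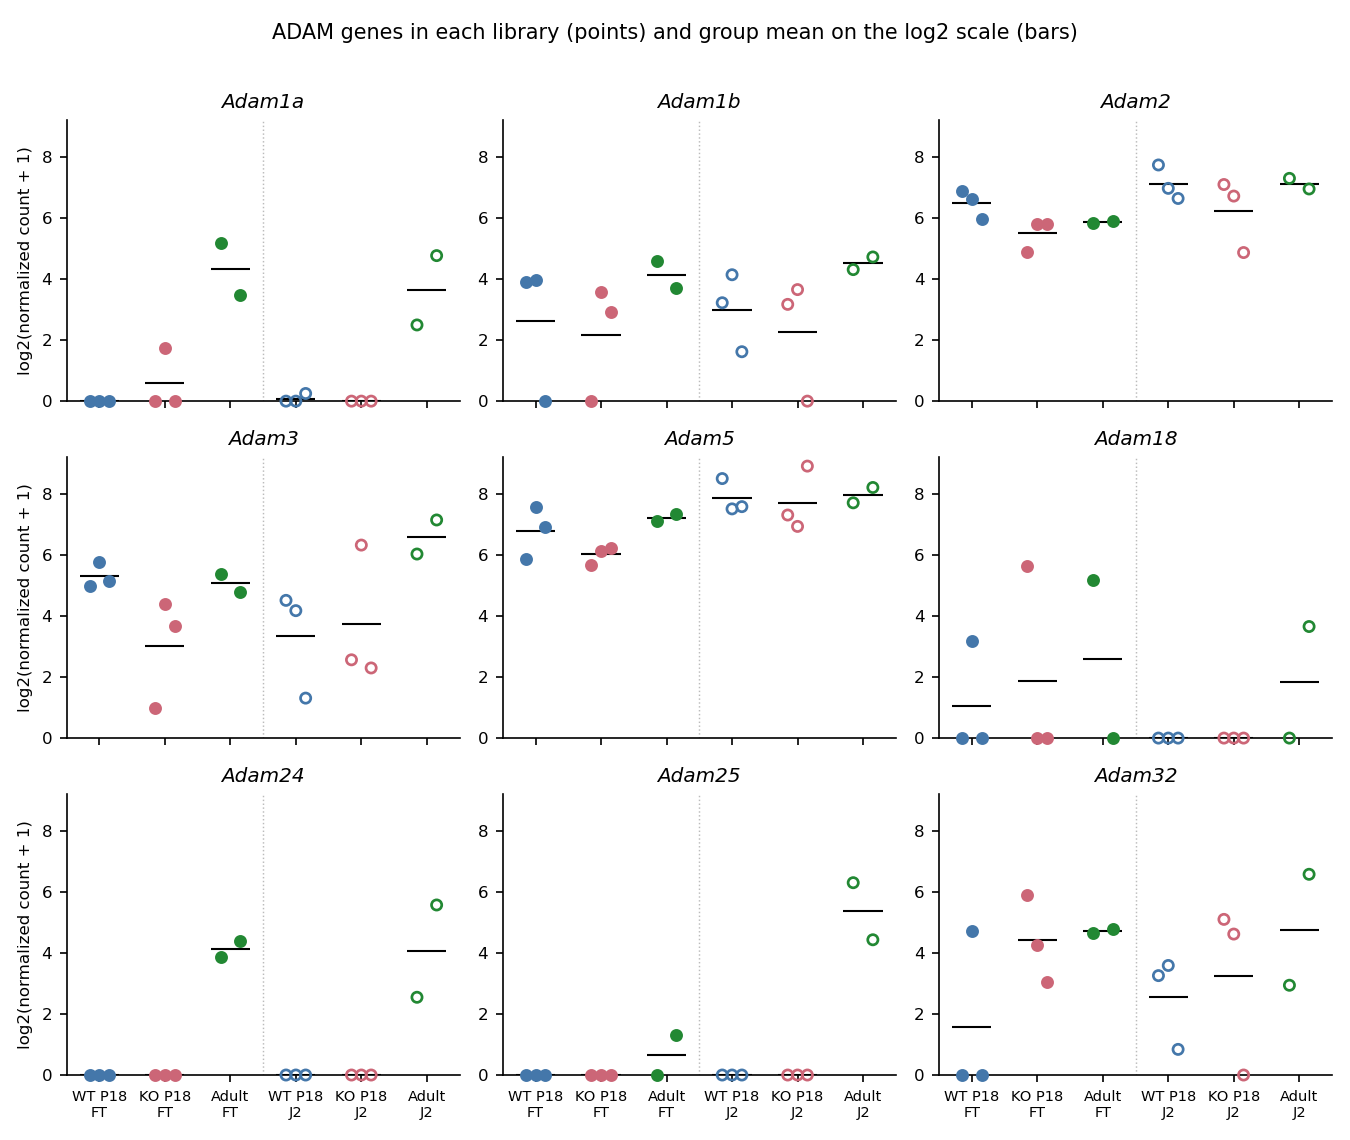
Each panel gives 1 ADAM gene, with log2(normalized count + 1) on the y axis and the 6 groups on the x axis (FT, flow-through, filled; J2, open; WT, wild type; KO, knock-out). Points are libraries and bars are group means of the log2 values, and Adam1a, Adam24 and Adam25 sit at or near 0 in the P18 groups.

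Adam2, the fertilin beta gene, was present in every group. Its values were 118, 97.1 and 61.3 units in wild-type P18 flow-through, 28.8, 54.6 and 54.8 in knock-out flow-through, and 56.4 and 58.2 in adult flow-through. In J2 they were 212, 124 and 98.5 units in wild type, 136, 104 and 28.2 in the knock-out, and 156 and 123 in adults. The adult J2 libraries thus lay above both adult flow-through libraries, and all 3 knock-out flow-through libraries lay below the wild-type ones, while the other neighbouring groups mostly overlapped. By group mean the order was wild-type J2 (145 ± 59.4, SD, n = 3), adult J2 (139, n = 2), wild-type flow-through (92.1 ± 28.5, n = 3), knock-out J2 (89.3 ± 55.2, n = 3), adult flow-through (57.3, n = 2) and knock-out flow-through (46.1 ± 14.9, n = 3). In that order, adult J2 did not overlap wild-type flow-through and adult flow-through did not overlap knock-out flow-through, and the other neighbours overlapped.

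The partners of fertilin beta differed in when they were seen. Adam1a, for the partner inside the cell, was at 34.9 and 10.2 units in adult flow-through and 4.64 and 26.2 in adult J2, the latter standing for about 18.7 and 226 reads. Adam1b, for the partner on sperm, was at 14.0, 14.7 and 0 units in wild-type P18 flow-through, 0, 10.9 and 6.61 in knock-out flow-through, and 23.2 and 12 in adult flow-through. In J2 Adam1b was at 8.33, 16.6 and 2.07 units in wild type, 7.99, 11.6 and 0 in the knock-out, and 18.8 and 25.4 in adults. Adult J2 lay above every P18 J2 library for Adam1b. In flow-through its adult values overlapped wild type and lay above the knock-out.

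Adam3, the cyritestin gene, was at 30.3, 54.0 and 34.5 units in wild-type P18 flow-through but at 0.97, 19.9 and 11.6 in knock-out flow-through, with 40.5 and 26.6 in adults. Adam3 was below the floor of 3 reads in knock-out flow-through replicate 1, where that floor is worth 24.3 units. In J2 it was at 21.8, 17 and 1.48 units in wild type, 4.91, 78.9 and 3.91 in the knock-out, and 64.2 and 140 in adults. In wild-type P18 every flow-through library thus exceeded every J2 library, and in adults both J2 libraries exceeded both flow-through libraries. By group mean adult J2 stood highest (102, n = 2) and did not overlap the next group, wild-type flow-through (39.6 ± 12.7, SD, n = 3). The remaining neighbours in the order, adult flow-through, knock-out J2, wild-type J2 and knock-out flow-through, overlapped.

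Adam5, next to Adam3 on the chromosome, was at 56.8, 190 and 119 units in wild-type P18 flow-through, 49.8, 69.5 and 74.6 in the knock-out, and 136 and 160 in adults. In J2 its values were 361, 181 and 190 units in wild type, 157, 121 and 479 in the knock-out, and 208 and 294 in adults. The 3 J2 groups had nearly equal means (244 ± 101, 252 ± 197, SD, n = 3 each, and 251, n = 2) and overlapped each other. Adult flow-through (148, n = 2) did not overlap wild-type J2, the lowest J2 group by mean.

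Adam18 and Adam32, the other genes of the cluster on chromosome 8, were patchy. Adam18 was above 0 in 4 libraries: 8.08 units in wild-type flow-through replicate 2, 48.6 in knock-out flow-through replicate 1, 35.6 in adult flow-through replicate 1 and 11.6 in adult J2 replicate 2. The flow-through values of Adam18 stand for about 4.03, 5.99 and 7.36 reads, and its value in adult J2 for about 99.9 reads. Adam32 was at 0, 25.4 and 0 units in wild-type P18 flow-through, 58.9, 18.3 and 7.35 in the knock-out, and 23.9 and 26.4 in adults. In J2 Adam32 was at 8.55, 11 and 0.789 units in wild type, 33.2, 23.5 and 0 in the knock-out, and 6.67 and 94.2 in adults. All neighbouring groups overlapped for both genes.

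The testase genes were seen in adults. Adam24 was at 13.4 and 20.1 units in adult flow-through and 4.84 and 46.5 in adult J2, about 2.78 and 9.41 reads against 19.5 and 401 reads. Adam25 was at 0 and 1.48 units in adult flow-through and 77.7 and 20.5 in adult J2. The 1.48 units of Adam25 stand for less than 1 read (0.69), while its J2 values stand for about 313 and 177 reads. In adults Adam24 was above 0 in both fractions with overlapping values, though in flow-through replicate 1 it lay below the floor of 3 reads. Adam25 was above that floor in J2 alone. The floor is worth 14.5 and 6.42 units in the adult flow-through libraries, so a level of Adam25 below these could not be told from 0.

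J2 was first compared with flow-through within each condition, which asks which transcripts the antibody held. In adults Adam25 was higher in J2, by a log2 difference of 4.71 ± 0.78 (SE) on log2(value + 1), with an adjusted p of 0.00515 in limma over all 16 libraries. Both adult J2 values lay above both flow-through values. The floor of 3 reads is worth 14.5 and 6.42 units in adult flow-through, so the log2 difference cannot be read as a fold. Adam25 passed the filter (10 units in at least 2 libraries) through its adult J2 libraries alone. It was 1 of 9 members called, beside 0.315% of 9526 genes. It was at 0 in every P18 library, so those groups add no spread to the fit, which lowers the SE and p. Over the alternatives run the adjusted p went from 2.66e-05 to 0.605, the last with the 4 adult libraries alone in the fit, and without either adult J2 library Adam25 fell below the filter. Adam2, Adam3, Adam5 and Adam25 were the 4 of 9 members whose adult groups did not overlap, all higher in J2, beside 35.7% of genes. The differences of Adam2 (1.26), Adam3 (1.5) and Adam5 (0.74) did not pass the test (adjusted p 0.847, 0.909 and 0.928).

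At P18 no member was called between the fractions, and Adam24 and Adam25 were at 0 in both. In wild type 0 of 9 members passed limma's adjusted threshold and 0 passed an unadjusted p of 0.05, beside 0.903% of genes called (86, with 1325 at the unadjusted p). Adam3 was the member without overlap, lower in J2 with a log2 difference of -1.97 (95% interval -4.43 to 0.49) as deposited and at 1.62 on the common total described below, where the median gene was at 1.87, beside 15.4% of genes without overlap. The values for Adam2 (0.62, -0.83 to 2.08) and Adam5 (1.08, -0.30 to 2.46) had intervals that include 0 and also a several-fold rise. In the knock-out 0 of 9 members were called by limma, beside 0.357% of genes (34, with 1094 at the unadjusted p). Adam5 was the member without overlap there, beside 18% of genes, at 1.70 (0.32 to 3.08, unadjusted p 0.0186, adjusted p 0.335), with 3 of 3 J2 libraries above every flow-through library. The median difference over the members tested was 0.08 in wild type, 0 in the knock-out and 0.37 in adults, against -0.05, -0.15 and 0.05 over all genes tested, with the genes at 0 counted in.

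These differences are relative to the authors' scaling, which places the median gene of the fractions close together. With every library rescaled to a common total over genes that are not mitochondrial, the median difference of all genes moved to 1.87 in wild type, 2.16 in the knock-out and 2.74 in adults. On that scale the calls over all genes were 2562 higher and 13 lower in wild type (50 and 36 as deposited), 2848 and 15 in the knock-out (16 and 18), and 3460 and 11 in adults (14 and 16). The members called higher in J2 on the common total numbered 2 in wild type (Adam2, Adam5), 3 in the knock-out (Adam2, Adam3, Adam5) and 7 in adults. Adam1a and Adam24 went from -0.69 and -0.07 to 3.14 and 3.76 in adults, where the median of all genes had moved to 2.74. Adam2 stood at 4.46 in wild type, 4.50 in the knock-out and 5.61 in adults on that scale. The 1 of log2(value + 1) was added after the rescaling, so genes at low values moved less than genes at high ones. The distance of a member from the median of all genes on that scale therefore depends on its level. It does not give the member's standing among the genes. Quantile normalization called 37 genes higher and 26 lower in wild type, 42 and 22 in the knock-out and 26 and 17 in adults, with 0, 0 and 1 members among them.

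**Figure D2:**
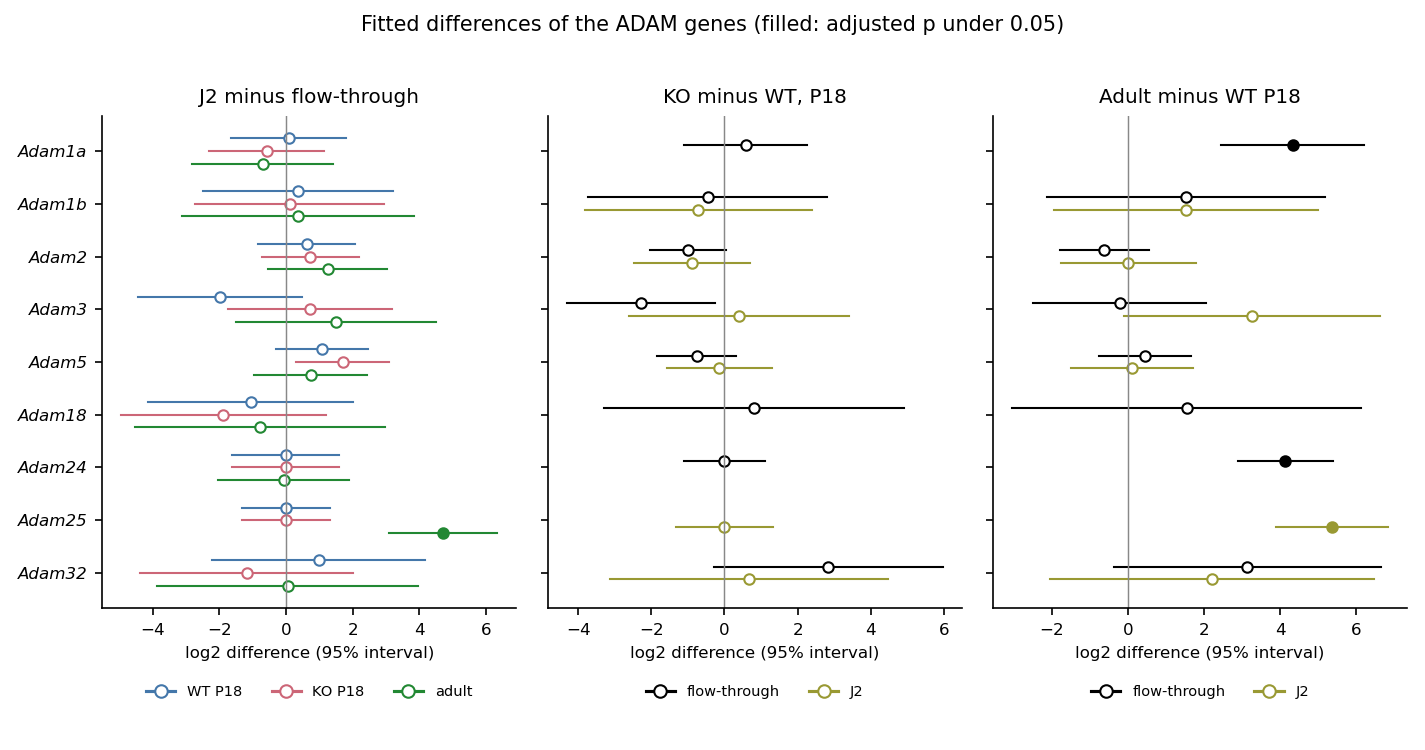
Log2 differences of the 9 ADAM genes on the x axis with 95% intervals from limma, by gene on the y axis, for J2 minus flow-through, knock-out minus wild type and adult minus wild-type P18. Filled points have an adjusted p under 0.05 (Adam25 at 4.71 and 5.36, Adam1a at 4.32, Adam24 at 4.13), and genes that missed the filter have no point.

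The knock-out was compared with wild type at P18 within each fraction, to ask whether these transcripts change where Dicer is lost. Limma called 0 of 8 members tested in flow-through and 0 of 6 in J2, beside 0% of 7141 and 0% of 6882 genes (Adam25 in flow-through and Adam1a, Adam18 and Adam24 in J2 missed the filter), with 436 and 440 genes at an unadjusted p of 0.05. In J2 limma called 1 gene, lower in the knock-out, with a filter of 50, 1 with the compared groups alone and 2 without wild-type J2 replicate 1. In flow-through Adam2 and Adam3 were lower in all 3 knock-out libraries than in all 3 wild-type ones, 2 of 8 members beside 10.6% of genes without overlap. Adam3 differed by -2.29 (95% interval -4.32 to -0.26, unadjusted p 0.0306, adjusted p 0.795) and Adam2 by -0.99 (-2.04 to 0.05, adjusted p 0.802). The knock-out Adam3 values stand for about 0.12, 9.78 and 4.2 reads, the wild-type ones for about 5.08, 27 and 4.15. Knock-out replicate 1 was below its floor (24.3 units) for Adam3, so the size of -2.29 rests partly on a value that cannot be read. The lowest Adam2 values stand for about 3.56 reads (knock-out replicate 1) and 7.38 reads (wild-type replicate 3). Both separations thus rest on few reads. Adam5 was at -0.76 (-1.84 to 0.32) with overlapping groups, and Adam32 at 2.84 (-0.30 to 5.97). In J2 0 of 6 members were without overlap, beside 9.9% of genes, and Adam2 was at -0.89 (-2.47 to 0.70) and Adam3 at 0.40 (-2.61 to 3.40).

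Summed over the 9 genes, flow-through held 214 to 389 units in wild type and 155 to 187 in the knock-out, and J2 held 293 to 611 and 339 to 511. Knock-out flow-through replicate 1, the library of the largest total, gave the lowest Adam2 and Adam3 values. Without it the Adam3 difference was -1.28 and that of Adam2 was -0.69. Sertoli cell markers (14 genes, 11 above the filter) summed to 253 to 382 units in wild-type flow-through and 451 to 509 in knock-out flow-through, without overlap, with 2 and 1 of them at 0 throughout, and 0 of the 11 tested were called. In J2 their sums overlapped (356 to 1179 and 539 to 838), with 0 of 9 called. Spermatocyte markers (14 genes, none at 0 throughout) overlapped, at 695 to 1021 and 652 to 1159 units. The part of cell make-up in the Adam2 and Adam3 values was not tested. In bulk tissue fewer cells of a type and less RNA per cell cannot be told apart. The difference between fractions in the effect of the knock-out called 0 of 9 members and 0% of genes in limma (455 genes and 0 members at an unadjusted p of 0.05), with Adam3 at 2.69 (-0.79 to 6.16).

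Adult testis, which holds spermatids in number, was then compared with wild-type P18, where spermatocytes are the most advanced abundant germ cells. In flow-through Adam1a was higher by 4.32 ± 0.84 (SE; adjusted p 0.018) and Adam24 by 4.13 ± 0.56 (adjusted p 0.00242), each in 2 of 2 adult libraries against 0 in 3 of 3 wild-type libraries. They were 2 of 8 members called by limma, beside 3.23% of 7141 genes, and both passed the filter through the adult libraries alone. Wild-type P18 was at 0 for both genes, and knock-out P18 for Adam24. Groups at 0 add no spread to the fit, which lowers the SE and p. A fold can be given only as a bound, because the P18 values are 0: against a floor of 3 reads per library, averaged over the group, Adam1a was at least 1.38-fold higher and Adam24 at least 1.03-fold higher, with 1 of 2 adult Adam24 values above its own floor. The lower adult library alone stood at 0.626 and 0.825 times that floor, so these bounds rest on the higher library. The floor is itself an approximate estimate in flow-through. Over the alternatives run the adjusted p of Adam1a went from 0.02 to 0.137, and leaving out any 1 wild-type flow-through library gave 0.0545 to 0.0784. That of Adam24 went from 0.0009 to 0.118, the last without a filter on low values, where 0 genes of the table were called. Without either adult flow-through library both genes fell below the filter.

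In J2 Adam25 was higher in adults by 5.36 ± 0.66 (SE; adjusted p 0.000445), in 2 of 2 adult libraries against 0 in 3 of 3 wild-type libraries, the member called of 6 tested, beside 5.46% of 6882 genes. It too passed the filter through the adult libraries alone, and both P18 groups at 0 lower its SE and p as well. Its adjusted p went from 0.000145 to 0.0953 over the alternatives, the last without a filter. Without either adult J2 library Adam25 fell below the filter. In J2 Adam25 was by its adult mean at least 52.9-fold higher than in wild-type P18 and at least 49.6-fold higher than in knock-out P18, and by the lower adult library alone at least 22.1-fold and 20.7-fold. Adam24 had 10 units in 1 J2 library only and was not tested, and was at least 27.6-fold and 25.9-fold higher by the same bound on its mean, but at least 5.22-fold and 4.89-fold by adult replicate 1 alone. Adam1a, likewise not tested in J2, was at least 15.6-fold higher than in knock-out P18 by its mean and at least 4.68-fold by adult replicate 1 alone, and in wild-type P18 it was at 0.19 units in 1 of 3 libraries.

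The members present at P18 showed no called change with age. Adam2 was at -0.63 (95% interval -1.79 to 0.54) in flow-through and 0.01 (-1.77 to 1.78) in J2, and Adam5 at 0.44 (-0.77 to 1.65) and 0.09 (-1.51 to 1.70). For Adam3 the value was -0.22 (-2.49 to 2.05) in flow-through and 3.25 (-0.11 to 6.62, adjusted p 0.375) in J2, where its adult libraries were 7.61 times the wild-type P18 mean. Adam32 was at 3.14 (-0.37 to 6.64) in flow-through and 2.20 (-2.06 to 6.45) in J2, and Adam1b at 1.52 in both, with intervals that include 0. Adult and P18 values did not overlap for 3 of 8 members in flow-through (Adam1a and Adam24 higher, Adam2 lower), beside 25.1% of genes. In J2 they did not overlap for 3 of 6 (Adam1b, Adam3 and Adam25, all higher), beside 27.6% of genes. The median difference over the members tested was 1.53 in flow-through and 1.86 in J2, against 0.28 and 0.33 over all genes tested (-0.21 and 0.48 on the common total). These medians hold the genes that passed the filter through adult libraries alone and are given as a description.

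**Figure D3:**
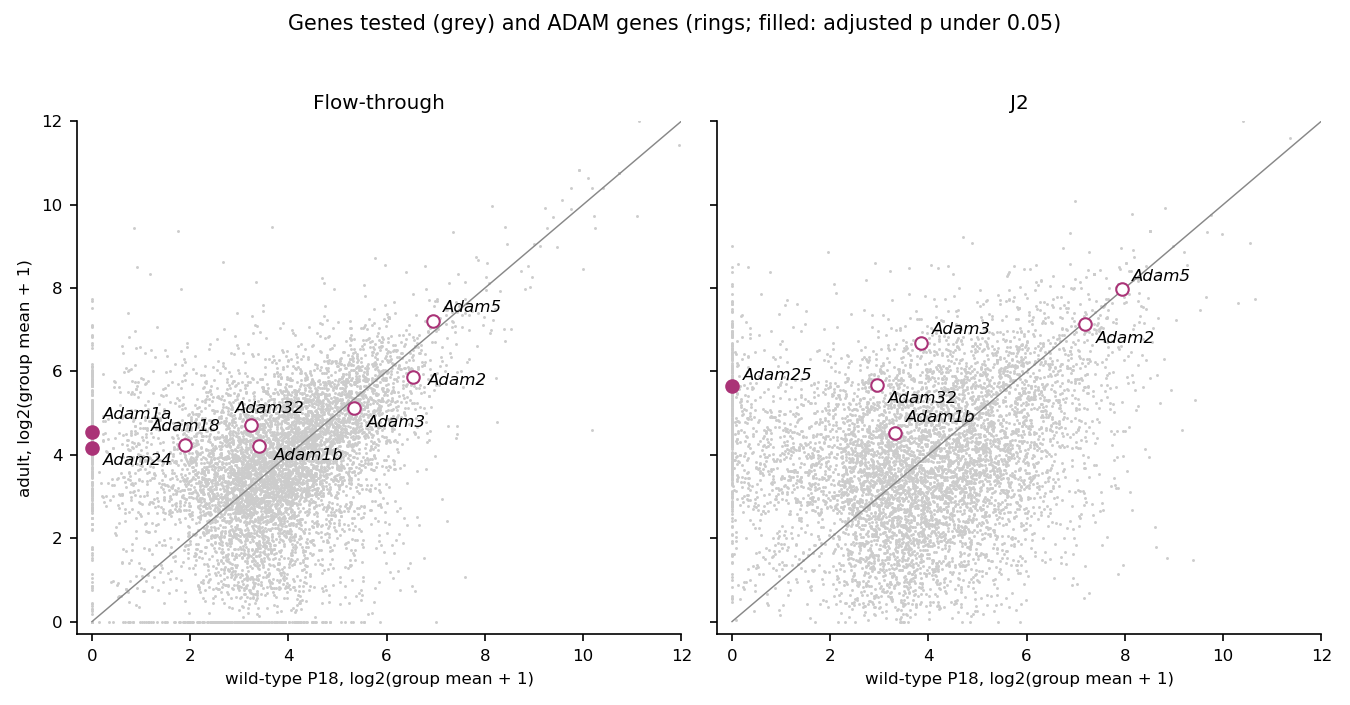
Group means as log2(mean + 1) for wild-type P18 (x axis) and adult testis (y axis), for genes tested in flow-through (left) and J2 (right), with axes ending at 12 and the diagonal marking equality. Adam1a and Adam24 in flow-through and Adam25 in J2 stand at 0 on the x axis among other genes at 0 in wild-type P18, and Adam2 and Adam5 lie near the diagonal.

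The adult libraries differed from P18 in spermatid content. The summed level of 14 spermatid markers was 14.2 to 21.1 units in wild-type P18 flow-through and 3118 to 3226 in adult flow-through, and 0 to 1.67 against 2190 to 2924 in J2. Of these markers 6 were at 0 throughout wild-type P18 flow-through and 10 throughout wild-type P18 J2, among them Prm1, the protamine that packs sperm DNA, in J2. In limma 12 of 13 spermatid markers tested rose in flow-through and 13 of 13 in J2, beside 3.23% and 5.46% of all genes called. None of the called markers had 10 units in a P18 library of that fraction, except Gapdhs in 1 flow-through library. They thus passed the filter through the adult libraries, and P18 groups at 0 lower their SE and p, so these calls are a description. For example, Prm1 rose by 8.79 and 8.5 and Akap4, of the sperm tail sheath, by 7.87 and 8.86. Spermatocyte markers gave 0 calls of 13 and 14 tested, with sums of 695 to 1021 against 941 to 1185 units in flow-through. Sertoli markers summed to 253 to 382 against 135 to 362 units in flow-through and 356 to 1179 against 131 to 282 in J2. The 6 epididymis markers summed to at most 0.579 units in any library. The part of spermatid content in the member values was not tested.

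Whether the effect of age differed between the fractions was tested as an interaction. Limma called 0 of 9 members and 0% of genes (514 genes and 1 member at an unadjusted p of 0.05). The member was Adam25, at 4.71 ± 1.01 (SE, unadjusted p 0.000162, adjusted p 0.308), from a fit to which its P18 groups at 0 add no spread. Its adjusted p was 0.0106 without adult flow-through replicate 2, the library with the 1.48 units, and 0.000814 on the common total. The next by size was Adam3, at 3.47 (-0.41 to 7.36, adjusted p 0.953). The remaining 7 members lay between -0.94 (Adam32) and 0.63 (Adam2).

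Other genes of the same biology were read from lists. Of 13 other testis ADAM genes 12 were in the table, and like Adam24 and Adam25 most were not seen at P18: 10 of the 12 were at 0 throughout wild-type P18 flow-through, and their summed level was 1.45 to 6.35 units in wild-type P18 J2 against 269 to 276 in adult J2. All 5 that were tested in J2 rose with age in limma, beside 5.46% of all genes called. They were Adam6a (by 5.72), Adam29 (4.57), Adam20 (4.45), Adam39 (4.27) and Adam4 (5.85). Each was at 0 in the 3 wild-type P18 J2 libraries, and in the 3 knock-out ones, so each passed the filter through the adult libraries alone. None of the 12 passed the filter in flow-through. Adam7, among the 12 and among the 10 at 0, is also on the epididymis marker list used here. It reached at most 0.348 units in any library, adults included. Adam6a was also called higher in J2 than in flow-through in adults (4.27, adjusted p 0.0388 in limma), with a mean of 52.6 units against 3.22. It was 1 of 7 tested, beside 0.315% of all genes called. Of 13 somatic ADAM genes 2 passed the filter over all libraries, Adam10 and Adam23, and neither was called in any comparison.

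The factors that fold, modify or retain sperm ADAM proteins were mostly present at P18, with 4 of 20 at 0 throughout wild-type flow-through and 7 throughout wild-type J2. Of the 20, 15 were tested in flow-through with age and 3 rose, beside 3.23% of all genes called: Prss37, Spem1 and Tssk6 (by 4.47, 4.96 and 7.02). In J2 5 of 16 rose, beside 5.46% of all genes called: those 3 (by 6.11, 4.56 and 4.37), Calr3 (4.75) and Galntl5 (4.97). Of these only Calr3 was above 0 in a wild-type P18 library of the fraction in which it rose. Tssk6 is also 1 of the spermatid markers. Prss37 is a sperm protein that ADAM3 needs for its maturation, and Calr3 is a testis chaperone that ADAM3 needs. Clgn, the calmegin chaperone on which the fertilin dimer depends, had group means of 61.3 units in wild-type P18 and 64.4 in adult flow-through, and 180 and 162 in J2, and was not called. The medians were 1.41 and 1.36 with age, against 0.28 and 0.33 over all genes. Between fractions 0 of 18 tested were called, beside 0.315% to 0.903% of all genes. Between genotypes 0 of 15 were called in flow-through and 0 of 16 in J2, beside 0% of all genes. The summed J2 level of all 20 was 1253 to 1717 units in wild type and 615 to 1069 in the knock-out. The flow-through sums overlapped (372 to 559 and 507 to 557). Of 7 proteases known or proposed to cut sperm ADAM proteins 4 or 5 were tested per comparison. Of these 0 were called, beside 0% to 5.46% of all genes.

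Some genes of sperm-egg binding and fusion rose with age in J2. Of 18 in the table, 11 were tested in J2 and 7 rose, beside 5.46% of all genes called: Spaca1 by 4.38, Izumo3 by 5.86, Eqtn by 3.37, Hyal5 by 5.04, Spam1 by 4.92, Zp3r by 4.56 and Izumo2 by 4.68. In flow-through 1 of 7 tested rose, Zp3r by 3.59, beside 3.23% of all genes. None of these called genes had 10 units in a P18 library of that fraction, so they passed the filter through adult libraries alone, as did the called maturation factors. Spam1 and Hyal5 are sperm hyaluronidases and Spaca1 and Eqtn are proteins of the acrosome membrane. Crisp2, the highest of the list by mean units, was not called. Its means were 71.5 units in wild-type P18 and 167 in adult flow-through, and 52.4 and 369 in J2. The summed level of the list was 113 to 258 units in wild-type P18 flow-through and 449 to 458 in adult flow-through. In J2 it was 132 to 335 against 897 to 910.

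**Figure D4:**
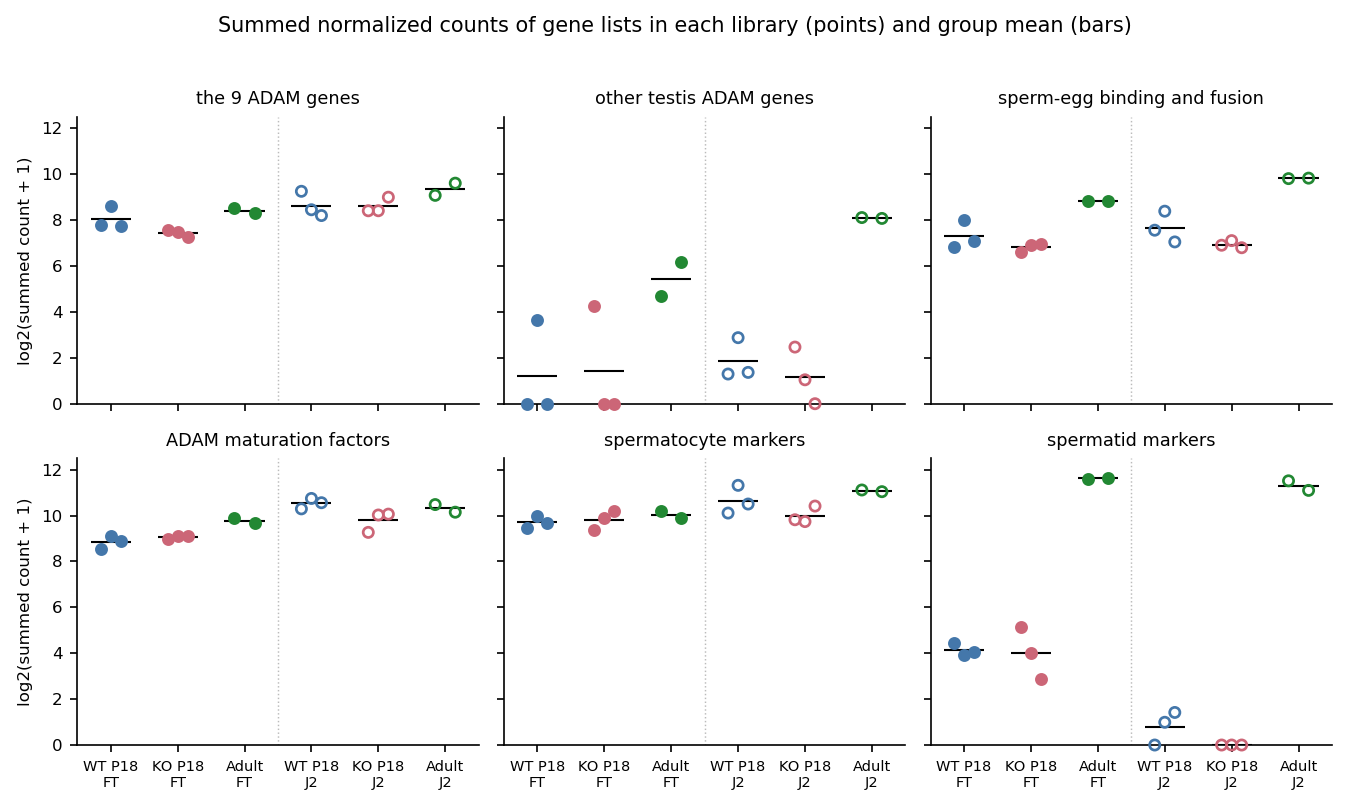
Summed normalized counts of 6 gene lists as log2(sum + 1) on the y axis, by group on the x axis (points, libraries; bars, means of the log2 values). The 9 ADAM genes overlap between ages in flow-through (214 to 389 units in wild-type P18, 315 to 364 in adults), and spermatid markers do not (14.2 to 21.1 against 3118 to 3226).

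The likeness of patterns was described by Pearson's r of log2(value + 1) over the 16 libraries, which share samples, scaling and many zeros, with 9492 other genes compared and no test. Between members it was highest for Adam1a with Adam24 (0.942), Adam1b with Adam3 (0.682) and Adam24 with Adam25 (0.639). Adam1a with Adam1b gave 0.514 and Adam3 with Adam5, which lie side by side, gave 0.149. Outside the members Adam24 was most like Prr27 (0.999), Fam71f1 (0.994), Fam71e2 and 4930442L01Rik (0.993 each) and Atp1a4 (0.992). Adam25 was most like 1700016D06Rik (0.997), Cst13 (0.996), Dnajc5b (0.987), Gm5941 (0.986) and Gm14391 (0.983), and Adam1a like BC049762 (0.989), Lmntd2 (0.981), Acrv1 (0.971), Plb1 and Catsper3 (0.97 each). The members present at P18 had looser matches: the 5 nearest genes of Adam2 reached 0.78 to 0.813 (first March11), of Adam3 0.741 to 0.769 (first Mtrex), of Adam5 0.843 to 0.891 (first Rsbn1), of Adam1b 0.79 to 0.865 (first Gm5878) and of Adam32 0.783 to 0.819 (first Usp32). Adam18, above 0 in 4 libraries, was nearest to Gm35202 (0.925). The mean of the 9 members was nearest to Ace3 (0.926), Zp3r (0.92), Pdilt (0.911), 4930407I10Rik (0.908) and 1700010D01Rik (0.905), of which Zp3r is on the binding and fusion list and Pdilt on the maturation list.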

How the data were processed

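Double-stranded RNA was captured from mouse testis with J2, and strand-specific libraries were made with a low-input kit, per the labels' protocols. The values deposited by the authors are a signal: normalized counts per gene and library. The submitters' processing notes name FastQC, Trimmomatic, Salmon, DESeq2 and mm10, without versions or settings. Columns were matched to samples by label, with 0 left over. Genes with at least 10 units in 2 of the libraries fitted entered limma 3.58.1 (R 4.3.3, two-sided) on a log2(value + 1) scale, with Benjamini-Hochberg adjustment over all genes tested and a threshold of 0.05. This scale understates the change of low genes. Fractions and interactions were fitted over 16 libraries, and genotype and age within the 8 libraries of a fraction. The procedure was tested on simulated data with the same spread for all genes and changes only in genes of higher level. That test does not cover genes with whole groups at 0, such as the members called. The members and lists were chosen with earlier results of these data known. All 9 members are named. From each list the text names genes called in a comparison, otherwise the highest by mean, and the 5 genes with the most similar pattern are named. Alternatives were the pseudocount, the filter, the scaling, the libraries fitted, a replicate block and leaving out each library.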

Additional observations from a re-analysis of the deposited data

Results flagged for a closer look

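Adam3 stood out because its fractions differed in opposite directions in wild-type P18 and adult testis. On the authors' scaling every J2 library was below every flow-through library in wild-type P18, and both J2 libraries were above both flow-through libraries in adults. In the knock-out at P18 the difference was 0.72 on the log2 scale, with overlapping groups. The difference between the ages was 3.473, with an unadjusted p of 0.0768 and an adjusted p of 0.953 in limma, so it did not pass the test. It kept its sign under every alternative run, at 2.46 to 4.07. The opposite directions themselves depend on the scaling. On the common total Adam3 was higher in J2 at both ages, at 1.62 in wild-type P18 and 5.69 in adults. The median gene was there at 1.87 and 2.74.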

How the results depend on the processing

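Of 980 recomputed member values 852 kept their direction and side of the threshold, 105 moved, 10 lost and 11 gained a call, and 2 reversed. A member that fell below the filter gave no value, so calls lost in that way are not among the 10. The values that moved include genes at 0 whose sign came from rounding alone. The tally therefore does not measure how stable the calls are. On the common total members called higher in J2 numbered 2 in wild type, 3 in the knock-out and 7 in adults, the age by fraction interaction called 1, and Adam1a (3.14) and Adam24 (3.76) changed sign in adults, where the rescaling put the median of all genes at 2.74. For adults in J2 against flow-through the count was 0 with a filter of 50 or the adult libraries alone. For age it was 0 with no filter or a filter of 50 in both fractions, and in flow-through 1 on the common total, with quantile normalization or with the compared groups alone. Leaving out 1 library gave 0 to 1 for the adult fractions, for age in each fraction and for the age interaction. The cause was not tested. All genes called higher ranged from 12 to 2562, 4 to 2848 and 0 to 3460 between fractions (wild type, knock-out, adult), and with age from 0 to 279 in flow-through and 0 to 378 in J2.

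Codes shared by a flow-through and a J2 library did not pair them in the data: deviations of 8 pairs correlated at -0.03 to 0.03, and 4 of the 8 pairs matched best with their own code. The replicate block (correlation 0.0011) left 1 adult member called between fractions and 0 elsewhere, as without it. Whole reads could not be recovered, so the planned count test was not run. Flow-through depth limits every statement about a value of 0.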

Other observations

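Markers of other testis cells also stood apart between groups. Spermatogonia markers (12 genes) summed to 128 to 190 units in knock-out J2 and 35.4 to 88 in wild-type P18 J2, and the flow-through sums overlapped. In that J2 comparison limma called 0 of 4 tested, beside 0% of all genes, and 9.9% of all genes were without overlap. Peritubular myoid markers (6 genes), of the contractile cells around the tubules, summed to 132 to 168 units in wild-type P18 J2 and 14.8 to 20.9 in adult J2. Of these markers 0 of 4 tested were called in J2, beside 5.46% of all genes called and 27.6% without overlap. The flow-through sums overlapped (159 to 507 and 41.4 to 244). The haemoglobin genes Hbb-bs and Hba-a1 were lower in adult than in wild-type P18 flow-through, by log2 differences of -2.98 and -5.45 (adjusted p 0.0272 and 0.0101 in limma), and Hbb-bs was lower in J2 too, by -4.77 (adjusted p 0.0056).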
